A study of Mus musculus with 2 samples.

Results

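Resident macrophage and leukocyte markers were followed in tibialis anterior, a shin muscle built largely of fast fibres. The 10 genes were taken by name: Ptprc, Cd68, Csf1r, Itgam, Mrc1, Cd163, C1qa, C1qb, C1qc and Lyz2. They are 10 of 27367 named genes on the array. The array reads them with 15 probes, and 12 of these, covering 8 of the 10 genes, were well above background on both arrays.

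The series held 2 arrays. One read RNA from an adult male C57BL/6 mouse transgenic for activated Notch2 (N2ICD), and the other RNA from an adult male C57BL/6 mouse whose genotype is given as control. The promoter of the transgene and any allele that the control carries are not given in the sources used here. By its title the study concerned what Notch2 made by muscle fibres does to the mass of the muscle and the type of its fibres.

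Macrophages live between the fibres of healthy skeletal muscle, where they clear debris and are kept alive by signals through the receptor Csf1r. They carry Ptprc (CD45), the phosphatase found on nearly all blood-derived white cells, and lysosomal and scavenger proteins such as Cd68, Mrc1 and Cd163. They are also a main source of C1q, the recognition part of the classical complement pathway. Whole muscle is mostly fibre RNA, so these transcripts make up a small part of what the arrays read. In such bulk RNA, fewer cells of a type and less RNA per cell cannot be told apart.

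With 1 array per group there was no replicate check and no test, and genotype, animal, dissection and array cannot be told apart. Differences are given as log2 values, N2ICD minus control, after each array was scaled to its own 75th percentile. A 2-fold difference was used as the threshold of size. Repeated spots of one probe gave an SD of the difference between 0.27 in the dimmest and 0.05 in the brightest of 4 level groups (260 probes), which is spot noise only. The scaling fixes every sign: a scale set by 7 spike-in probes (E1A) moved all genes up by 0.52. The labelled tissue showed its defining genes, with all 10 muscle fibre genes, such as Ckm, Acta1 and Myh4, well above background on both arrays.

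None of the 8 measured members differed by 2-fold. Over all 13639 measured genes, 2.32% did, 1.43% upwards and 0.894% downwards. On the 75th percentile scale 6 of the 8 lay below 0, where 49.3% of all genes lay, and 2 lay above it, where 50.7% lay, whereas on the spike-in scale 7 of the 8 lay above 0. That scale moves all genes alike, so the median over all genes was 0.53 there, and the members' median minus that of all genes was -0.17 on both scales. This offset was 0.02 when dim probes were kept, which brought in all 10 members. Of the 6 below 0 on the 75th percentile scale, C1qb had -0.005. The split was 5 below and 3 above after median or loess scaling, with the brightest probe and on the authors' deposited values. On the 75th percentile scale the members' median was -0.16, against 0.01 over all genes. The members ran from -0.61 for Csf1r to 0.40 for Lyz2, and the middle 90% of all genes ran from -0.57 to 0.59.

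**Figure D1:**
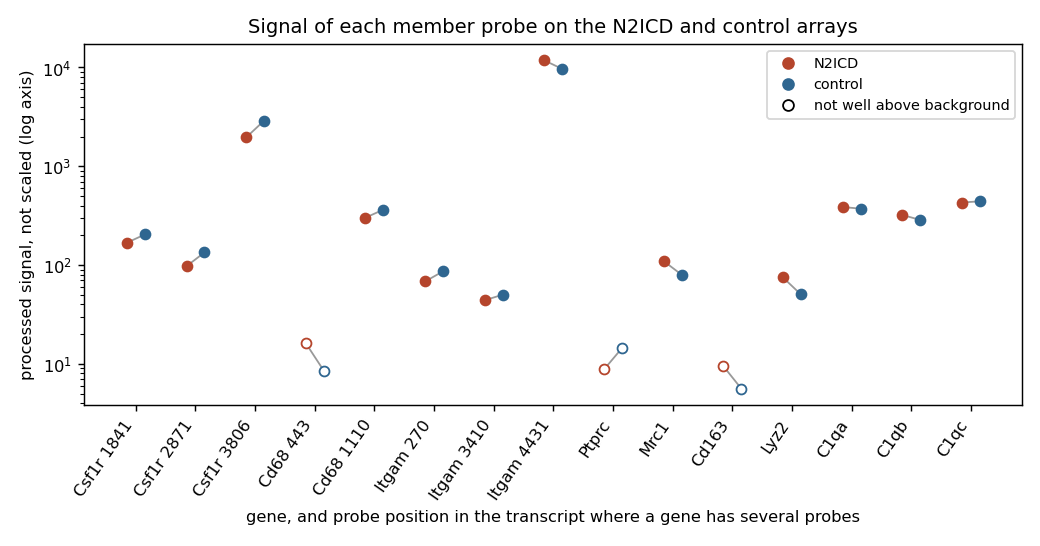
Processed signal of each of the 15 probes (log axis, not scaled between arrays) for N2ICD (left point of each pair) and control (right point). Open points were not well above background, which held for Ptprc, Cd163 and 1 Cd68 probe on both arrays.

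Csf1r, the receptor for the growth factors Csf1 and Il34 that macrophages need to survive, had the lowest difference of the members, and all 3 of its probes were readable. The probe 3806 bases into the transcript (chromosome 18 of mm9, 61290725 to 61290784) gave signals of 1958 for N2ICD and 2893 for control, and a log2 difference of -0.74. The probe at position 1841 (61278661 to 61278720) had signals of 168 in N2ICD and 204 in control, a difference of -0.45. The probe at position 2871 (61289398 to 61289758, a stretch longer than the probe's 60 bases) had 97.4 in N2ICD and 134 in control, a difference of -0.63. All 3 probes were thus lower on the N2ICD array, each by more than 2 SD of the spot noise at its level.

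The mean of the 3 Csf1r probes was -0.61, or 1.52-fold lower in N2ICD. A lower value was seen in 4.36% of all measured genes. Csf1r was the 1 member past 1.5-fold, in a direction in which 4.83% of all genes passed that size. It stayed below 0 under all 12 settings tried, from -0.74 with the brightest probe to -0.08 on the spike-in scale.

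Cd68, a glycoprotein of macrophage lysosomes, was read by 2 probes on chromosome 11 (mm9), of which 1 gave a usable signal. The probe at position 1110 (69477775 to 69477834) had a signal of 302 in N2ICD and 364 in control, a difference of -0.44, or 1.36-fold lower in N2ICD and 3.45 times the SD of the spot noise. The probe at position 443 (69478979 to 69479038) had 16.2 in N2ICD and 8.55 in control, neither well above background. The 2 positions are counted on different transcript records, of Ensembl for the readable probe and of RefSeq for the dim one. The Cd68 value therefore rests on 1 probe with 1 spot per array, and it was 0.15 when dim probes were kept and 0.08 on the spike-in scale. The first 30 of the 60 bases of each Cd68 probe are shown, since only the second gave a signal.
Cd68 probe at 443: ccgaatcctatacccaattcagggtggaag
Cd68 probe at 1110: gcctcatctcttcaccatgccactgactca

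Itgam (CD11b), the integrin chain that joins Itgb2 to form complement receptor 3 on myeloid cells, was read by 3 probes that disagreed in sign. The probe at position 270 (135212140 to 135212199 on chromosome 7 of mm9) gave signals of 68.1 in N2ICD and 86.3 in control, a difference of -0.51. The probe at position 3410 (135260275 to 135260334) had 44.05 in N2ICD and 50.04 in control, a difference of -0.36. Each of these differences lay within 2 SD of the spot noise at that level.

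The remaining Itgam probe, at position 4431 (135261755 to 135261814), had signals of 11803 in N2ICD and 9654 in control and a difference of 0.12. Positions 3410 and 4431 are counted on the same transcript record and position 270 on another. Its sequence opens with a run of 20 bases that repeat CA, marked in capitals below, while the longest such run in any other member probe was 5 bases. The first 30 bases of the 3 probes are set side by side to show this.
Itgam probe at 270: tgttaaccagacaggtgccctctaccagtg
Itgam probe at 3410: aagttcacaatcctgtaccactcattgtgg
Itgam probe at 4431: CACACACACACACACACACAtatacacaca
On the whole array, 110 probes held a CA or TG run of at least 16 bases, and 109 of them (99.1%) were well above background on both arrays, against 38.9% of all 55672 probes. Those 109 had a median difference of -0.20, with 80 below 0. Whether the probe at 4431 reads Itgam alone was not tested. The mean of all 3 Itgam probes was -0.25. Without the repeat probe, a choice made after the data were seen, it was -0.43, and with the brightest probe alone, which is the repeat probe, it was 0.12.

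**Figure D2:**
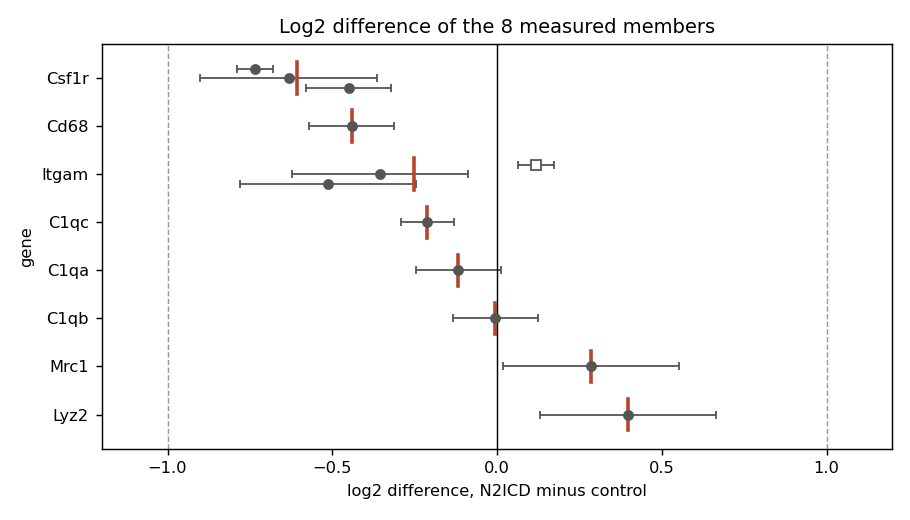
Log2 difference, N2ICD minus control, of the 8 measured members on the 75th percentile scale. Grey points are probes with the SD of the spot noise at their level, the open square is the Itgam probe with the CA repeat, red lines are gene means, and dashed lines mark 2-fold. Csf1r is the gene furthest below 0 and Lyz2 the furthest above. A spike-in scale would move all points up by 0.52.

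Ptprc and Cd163 could not be compared. The Ptprc probe (139961083 to 139961142 on chromosome 1 of mm9, position 3861) gave signals of 8.77 in N2ICD and 14.4 in control, and neither was well above background. The Cd163 probe (chromosome 6, 124270436 to 124270495, position 2610), for the scavenger receptor that takes up haemoglobin bound to haptoglobin, had 9.47 in N2ICD and 5.62 in control. The lowest probe signal judged well above background was 27.1 for N2ICD and 25.4 for control. The general white-cell marker and the haemoglobin receptor were thus below what these probes could read in either muscle, each with 1 probe, whose first 30 bases are given to identify it.
Ptprc probe: gaggaaccagaacatgctgccaatggttct
Cd163 probe: tgttttacaatggtacatggggcagtattg

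Mrc1 (CD206), the mannose receptor of tissue-resident macrophages, differed in the other direction from Csf1r. Its probe (14253273 to 14253332 on chromosome 2 of mm9, position 4940) gave signals of 109.7 in N2ICD and 79.9 in control, a difference of 0.29, or 1.22-fold higher in N2ICD. This was 1.07 times the SD of the spot noise for probes that dim. The sign was positive under all 12 settings, from 0.14 after normexp background correction to 0.81 on the spike-in scale.

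Lyz2, the lysozyme of macrophages and neutrophils, had the highest difference of the members. Its probe (116719175 to 116719234 on chromosome 10, position 94) gave signals of 74.8 in N2ICD and 50.4 in control, a difference of 0.40, or 1.32-fold higher in N2ICD. That was 1.49 times the SD of the spot noise, and it shrank to 0.12 after normexp background correction. The probe of the close paralog Lyz1 had signals of 349 in N2ICD and 271 in control, a difference of 0.19, and whether either probe reads both transcripts was not tested.

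C1q is built of the A, B and C chains, whose genes lie side by side. Their probes fell within 15891 bases of chromosome 4 (mm9, 136436578 to 136452468), in the order C1qb, C1qc, C1qa, and no other gene of the GRCm38.p6 annotation overlaps that cluster. All 3 chains stood well above background on both arrays and lay close to 0 on the 75th percentile scale, with a median of -0.12 that turned to 0.40 on the spike-in scale, where all genes had 0.53. C1qa had a signal of 387 in N2ICD and 372 in control, a log2 difference of -0.12 after scaling. C1qb had 322 in N2ICD and 286 in control, and a difference of 0.00 after rounding. The signals of these chains were slightly higher in N2ICD and their scaled values were not, because the scaling itself takes off 0.17.

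C1qc (chromosome 4, 136445766 to 136445825, position 945) was the member read most often, since its probe was printed 10 times on each array and 9 of those spots passed the flags. The signals ran from 402 over a median of 434 to 454 for N2ICD, and from 415 over 446 to 465 for control. These ranges overlapped before scaling, and the median of each array lay within the range of the other. The log2 difference after scaling was -0.21 ± 0.08 (SD over 9 spots of the same pair of arrays), from -0.31 to -0.08, and all 9 spots lay below 0. On the spike-in scale the C1qc value was 0.31. The spread of 4.38% (N2ICD) and 4.31% (control) in signal shows how closely a spot of this brightness repeats, and says nothing of the spread between animals.

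**Figure D3:**
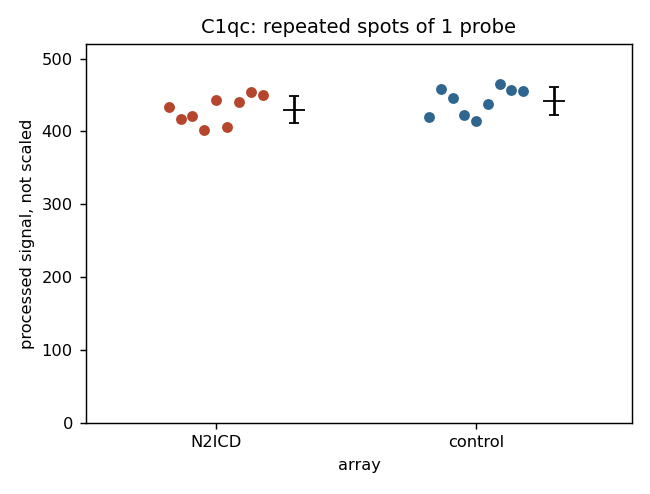
Processed signal (linear axis from 0, not scaled between arrays) of the 9 spots of the C1qc probe for N2ICD and for control, with mean and SD over spots to the right of each. The signals ran from 402 to 454 in N2ICD and from 415 to 465 in control and overlapped.

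The start regions of the member genes were searched for GAGGAA, the core bound by the myeloid factor PU.1 (Spi1), on both strands. RefSeq windows (GRCm38.p6) from 250 bases before to 50 after the annotated start were at hand for 8 members, in 9 windows. Csf1r and C1qa had no window and were not searched. Of these windows 6 held the letters at least once (66.7%), against 28.3% of all 32851 windows. A match is a description of the letters and not a binding site. Stretches of 30 bases around matches in the neighbouring C1qb and C1qc genes and in Itgam and Mrc1, with the core in capitals, are shown as examples. The C1qb and Itgam stretches are printed as the window reads, and those of C1qc and Mrc1 as its opposite strand. Itgam and Mrc1 each held 3 matches, of which 1 is shown, and the matches in Cd68 and Ptprc are not shown. Any link between a match and an expression difference was not tested.
C1qb, 30 bases before the start: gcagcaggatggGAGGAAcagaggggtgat
C1qc, 193 bases before the start: gtgtgccaaaatGAGGAAgtgtctgccgtc
Itgam, 84 bases before the start: tgttttctcccgGAGGAAggctacagaggg
Mrc1, 35 bases before the start: aaaaggaggacaGAGGAAgctgtccctttt
The Cd163 and Lyz2 windows and 1 of the 2 Ptprc windows held no such letters. Spi1 itself did not stand well above background on either array.

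Further leukocyte genes, and genes that act around them, were set beside the members in 9 lists. Of their 191 genes 120 were measured on both arrays, and 7 of those differed by 2-fold, a size that 2.32% of all measured genes reached. All list medians below are on the 75th percentile scale, and on the spike-in scale all 13 lists outside the members had a median above 0, as all genes did at 0.53. Pan-leukocyte and myeloid genes stood lowest, at -0.27 across the 25 of 34 that were measured, with 20 below 0, where 49.3% of all genes lay, and 0 past 2-fold. Itgb2, the partner chain of Itgam, had signals of 46.6 in N2ICD and 73.3 in control, a difference of -0.83. The white-cell GTPase Rac2 had -0.72, and both values came from dim probes with a spot noise SD of 0.27.

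The tissue-resident macrophage list, with 24 of 29 genes measured, had a median of -0.07, and 0 were past 2-fold upwards and 2 downwards. Cbr2, a carbonyl reductase that resident macrophages carry and other cells make too, averaged signals of 1239 in N2ICD and 4546 in control over 2 probes, and was 4.19-fold lower in N2ICD, with differences of -2.09 and -2.04. Retnla, a secreted protein of alternatively activated macrophages that fat tissue also makes, had 399 in N2ICD and 789 in control and was 2.23-fold lower in N2ICD. At the other end Trem2, a lipid-sensing receptor of macrophages, had 68.0 in N2ICD and 33.4 in control, a difference of 0.86.

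Monocyte and inflammatory macrophage genes went both ways. Of 22 listed, 9 were measured, their median was 0.10, and 3 passed 2-fold, 1 upwards and 2 downwards. Il4i1, an amino acid oxidase of antigen-presenting cells, had signals of 98.2 in N2ICD and 328 in control and was 3.76-fold lower in N2ICD. Spp1 (osteopontin) had 178 in N2ICD and 400 in control and was 2.53-fold lower.

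The monocyte chemokine Ccl2 had 109 in N2ICD and 42.0 in control and was 2.31-fold higher in N2ICD, a log2 difference of 1.21 that was 0.54 after normexp background correction. Ccl7 stood well above background for N2ICD alone, with 64.9 in N2ICD and 15.4 in control, so it was at least 2.27-fold higher. That bound sets the N2ICD value against the lowest control value judged well above background. Il1b, Tnf, Il6, Arg1, Ccl3 and Ccl4 were not well above background on either array.

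Granulocyte and mast cell genes split as well, with 10 of 21 measured at a median of -0.15, 5 above and 5 below 0. Lcn2, a siderophore-binding protein of neutrophils that other cells also secrete, had 272 in N2ICD and 93.1 in control and was 2.59-fold higher in N2ICD. The antimicrobial peptide Camp had 31.2 in N2ICD and 56.9 in control and was 2.05-fold lower, close to the lowest readable signal, and the mast cell tryptase Tpsb2 had a difference of -0.76. The 7 genes past 2-fold depended on the processing. On the spike-in scale Cbr2, Il4i1, Ccl2 and Lcn2 were past it, while Spp1 had -0.82, Retnla -0.63 and Camp -0.52. After normexp background correction Cbr2, Il4i1 and Spp1 were past it, while Retnla had -0.97, Camp -0.48, Ccl2 0.54 and Lcn2 0.85.

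Lymphocyte genes had 7 of 24 measured, all 7 below 0, where 49.3% of all genes lay, and a median of -0.22. Cd3e had -0.70, Cd4 -0.46 and the cytotoxic pore protein Prf1 -0.45. Antigen presentation and dendritic cell genes had a median of -0.21 over 8 measured of 15, led by the class II chain H2-Aa at -0.59, Cd80 at -0.46 and H2-DMb1 at -0.42.

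Lists of genes that act around the members had medians from -0.19 to 0.05, while single genes lay further from 0. The list of Csf1 receptor ligands and myeloid transcription factors had 11 of 14 genes measured at a median of -0.04, and its outermost members were Irf5 at -0.70, the receptor chain Csf2ra at -0.43 and Cebpb at 0.31. The Csf1r ligands Csf1 and Il34, singled out after their values were seen, had -0.10 and 0.04. For complement components and regulators the median was 0.05, with 17 of 21 measured, and they included the properdin gene Cfp at -0.64 and the membrane regulator Cd59a at 0.83. Haemoglobin and iron handling genes had a median of -0.19 over 9 measured of 11, with biliverdin reductase Blvrb at -0.49, the iron exporter Slc40a1 at -0.29 and haptoglobin (Hp) at -0.27. None of the genes in these 3 lists passed 2-fold.

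**Figure D4:**
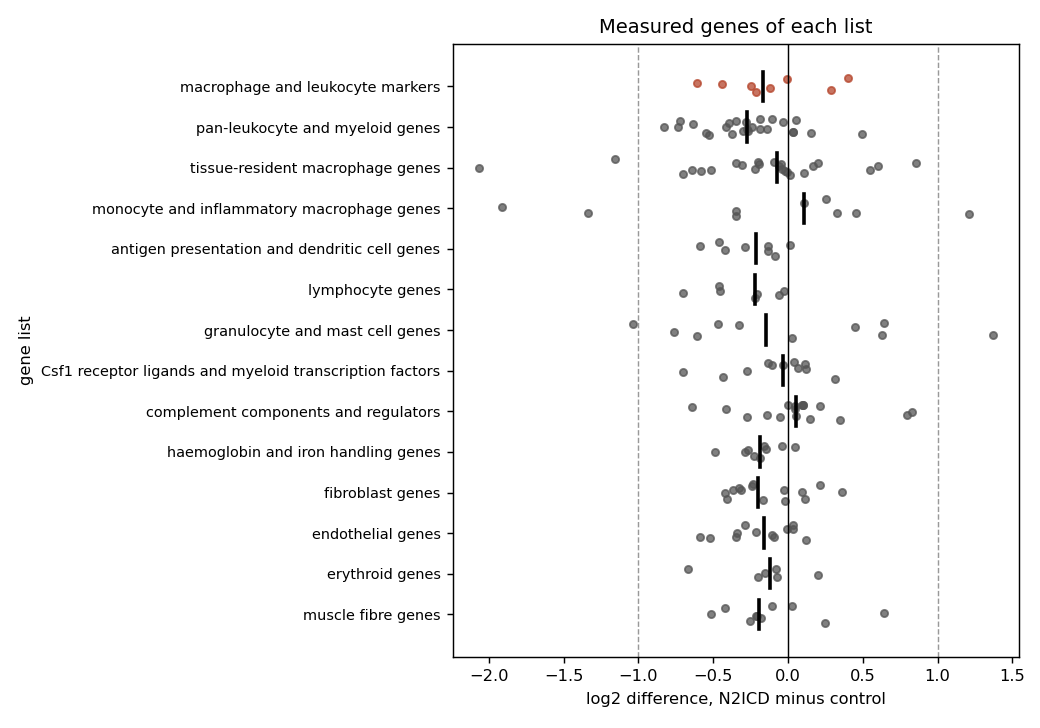
Log2 difference, N2ICD minus control, of each measured gene in the 14 lists on the 75th percentile scale, with the list median as a black line and 2-fold as dashed lines. The markers, in red, had a median of -0.16, and Cbr2 is the point furthest to the left. A spike-in scale would move all points up by 0.52, so that all medians lay above 0.

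Markers of other cells in the muscle lay at similar values. Fibroblast genes had a median of -0.20 over all 14 genes, with 10 below and 4 above 0, among them Thy1 at -0.42, Col1a1 at -0.41 and Pcolce at -0.37 and, on the other side, Gsn at 0.36, which was singled out after its values were seen. Their summed scaled signal was 695 in N2ICD and 798 in control. Endothelial genes had a median of -0.16 over all 12, with 9 below 0, and included Emcn at -0.59, Kdr at -0.52 and Tek at -0.34, and their sum was 109 in N2ICD and 133 in control. Erythroid genes had -0.12 over 6 measured of 7, with 5 below 0, and included Slc4a1 at -0.67 and Bpgm at -0.20, and their sum was 227 in N2ICD and 242 in control. Muscle fibre genes had -0.19 over all 10, with 7 below 0, and included the oxygen store Mb at 0.64, Ckm at -0.52 and Pvalb at -0.42. The macrophage and leukocyte markers, at a median of -0.16, stood within the range of these medians. Their summed scaled signal was 82.8 in N2ICD and 86.5 in control over 12 probes, and 20.8 in N2ICD and 29.4 in control without the Itgam repeat probe. The bright Csf1r probe made up the largest share of the smaller sums. The part of other cells in the members' values was not tested.

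Among the 8 measured members Csf1r was the lowest under all 12 settings. Lyz2 was the highest under 11, the exception being normexp background correction, where Mrc1 was. These settings process the same 2 arrays, and scalings that move all genes alike cannot change the order. The settings are therefore no replicate check of it, and the Lyz2 and Mrc1 values lay within 2 SD of the spot noise. The order of the members between Csf1r and Lyz2 was less fixed. Cd68, at -0.44, was at 0.15 when dim probes were kept, and Itgam, at -0.25, was at 0.12 with its brightest probe.

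**Figure D5:**
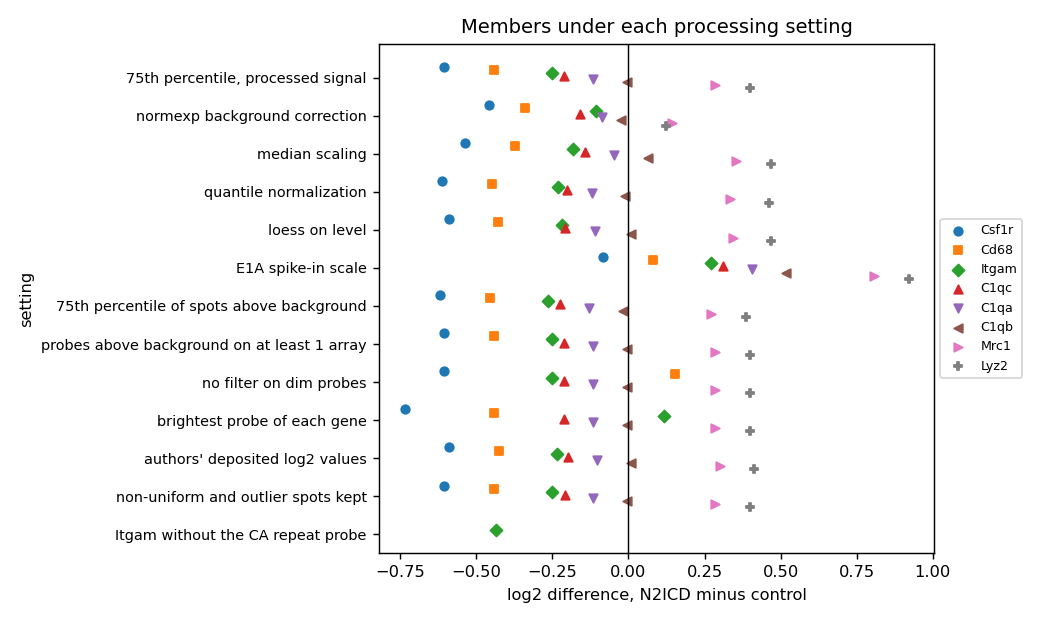
Log2 difference, N2ICD minus control, of the 8 measured members (symbols) under each processing setting (rows), with Itgam alone in the last. Csf1r lay below 0 in all rows and Mrc1 and Lyz2 above 0, while the spike-in scale moved the other 5 members above 0.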

How the data were processed

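Total RNA of tibialis anterior was labelled with Cy3, per the labels' protocols, and read on 1 array per group. Spot intensity in the scanner files is the authors' output of Agilent Feature Extraction, version 10.10.1.1 in the file headers, with background subtracted and trends within each array removed. The authors' deposited table gives an unsigned fold and a normalized log2 value per probe. Its making is not described in the sources used here, and it served as an alternative.

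The log2 signal was reduced by the 75th percentile of the 59305 non-control spots of each array, at 190.4 for N2ICD and 168.9 for control. Well above background were 42.1% of these spots for N2ICD and 42.0% for control, and 0 were saturated. The 215 spots marked as non-uniform or outliers were dropped, spots of a probe were averaged, and probes readable on both arrays were averaged per gene name of the files. Of the 15 member probes 13 carry an accession of the same symbol in RefSeq (GRCm38.p6), and 0 probes of other names do. Coordinates are those of mm9 in the files, and whether a probe lies in a coding or untranslated stretch was not determined.

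The members and gene lists were chosen with earlier results of these data known. Besides the members, the text names each list gene past 2-fold and in each list the 3 measured genes furthest from 0, apart from some that are not reported here. Alternatives were normexp background correction (offset 50), median, quantile, loess and spike-in scaling, a percentile over spots above background, looser filters, the brightest probe, the deposited values, kept outlier spots, a threshold of 1.5-fold, and a mean over members. Dropping the Itgam repeat probe was added after the data were seen. The steps were tested on simulated data. Python 3.11.15 (numpy 2.4.6, pandas 2.3.3) and limma 3.58.1 under R 4.3.3 were used.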

Additional observations from a re-analysis of the deposited data

How the results depend on the processing

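No paired analysis was possible because each group holds 1 array, and for the same reason no array could be left out. On the spike-in scale the median of the members was 0.36 and that of the C1q chains 0.40, against 0.53 over all genes, and 12 genes of the leukocyte lists passed 2-fold in place of 7. That count was 3 after normexp background correction, 16 with no filter on dim probes and 25 at a threshold of 1.5-fold, where the count of members was 1. At 1.5-fold, 4.83% of all 13639 measured genes were lower in N2ICD. The share that was higher was not counted, so the 25 cannot be set against all genes. Of all 13639 genes, 195 were at least 2-fold higher and 122 lower. Over the same genes these counts were 1056 and 22 on the spike-in scale, 228 and 98 after median scaling, and 82 and 43 after normexp. With probes above background on at least 1 array they were 365 and 328 of 14611 genes. With no filter they were 830 and 965 of 27367 genes. Under settings other than the spike-in scale the medians of the members and of the C1q chains moved by less than 0.16. That is the SD between repeated spots of a probe, not the spread of a median. The members' median minus that of all genes was -0.17 on the 75th percentile scale and -0.10 after normexp. It was -0.07 with the brightest probe and 0.02 with no filter on dim probes. The cause of these shifts was not tested. Ptprc and Cd163 had no probe above background, the Cd68 value of -0.44 turned to 0.15 once dim probes were kept, and 1 array per group limits all values.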
